A study of Homo sapiens with 33 samples.

Results

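The transcriptional response to cetuximab was compared between SCC6 and SCC25, cell lines established from human head and neck squamous cell carcinoma (HNSCC). The quantity of interest was the line-by-treatment difference, that is, the log2 fold change of cetuximab over vehicle in SCC6 minus the same fold change in SCC25. A value above 0 means that cetuximab moved a gene upward more in SCC6 than in SCC25, and a value below 0 the reverse. All libraries of both lines on days 1 to 5 were taken, giving 20 of the 33 libraries of the series, 5 in each of the groups SCC6 PBS, SCC6 CTX, SCC25 PBS and SCC25 CTX. CTX libraries came from cells kept in 100 nM cetuximab, a monoclonal antibody against the epidermal growth factor receptor (EGFR), and PBS libraries from cells kept in phosphate-buffered saline as vehicle. SCC25 CTX and both PBS groups hold 1 library for each of days 1 to 5, whereas the SCC6 CTX labels give day 2 to a pair of libraries (called 2a and 2b here), then days 3, 4 and 5, and day 1 to none. The labels give the lines different media, SCC25 with added hydrocortisone and SCC6 (UM-SCC-6) with non-essential amino acids, whereas the methods of the study describe a shared medium, so line and medium may not be separable, and 1 line stands for each side of the comparison. The libraries of a group are successive days rather than declared separate cultures, so every p-value measures the spread between these samples.

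EGFR is a receptor tyrosine kinase that binds ligands such as amphiregulin (AREG), TGF-alpha (TGFA) and heparin-binding EGF (HBEGF) and signals through the RAS, RAF, MEK and ERK kinases. ERK activity induces immediate early transcription factors (EGR1, FOS) together with its own feedback inhibitors (DUSP and SPRY genes), and these transcripts are widely used as a readout of the pathway. Cetuximab occupies the extracellular domain of EGFR and blocks ligand binding. In squamous epithelium EGFR signalling is known for its part in proliferation, migration, cytokine production and the balance between basal and differentiated cells.

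Library totals ranged from 28508758 to 80727478 estimated counts, and 20558 of 56470 gene symbols passed the filter on low counts. Levels are given as CPM, counts relative to a library total scaled by TMM, a normalisation that removes differences in composition between libraries, and compare samples for 1 gene rather than genes with each other. Within-group spread was wider in SCC6 (median SD of log2 CPM 0.192 in PBS and 0.198 in CTX) than in SCC25 (0.101 and 0.136). SCC6 PBS day 1 stood apart from the other vehicle libraries of its line, with a median absolute log2 ratio to the group mean of 0.249 against 0.0708 to 0.161, and it was the only one of these 20 libraries on its flow cell. SCC6 CTX days 4 and 5 shared another flow cell with no vehicle library and lay farthest from SCC6 PBS (0.431 and 0.393, against 0.203 to 0.268 on days 2 and 3). In SCC25, CTX days 3, 4 and 5 were likewise on a flow cell with no SCC25 vehicle library. Counts of called differences are therefore also given with flow cell as a covariate where this moved them by more than 1.5 times. The same was done without SCC6 PBS day 1 and SCC6 CTX days 4 and 5, the 3 libraries that stood apart. Among the 20 libraries, none of these flow cells held both PBS and CTX. With the covariate, fold changes in SCC6 therefore rest on PBS days 2 to 5 and CTX 2a, 2b and 3. In SCC25 they rest on PBS days 1 to 5 and CTX days 1 and 2. Flow cell and day cannot be told apart in that fit. All 9 squamous markers were detected in every group. The summed level of 10 fibroblast markers was 3.27 to 5.24 CPM in SCC6 PBS and 9.42 to 111 CPM in SCC6 CTX, and 182 to 231 and 295 to 464 CPM in SCC25, with 9 of the 10 averaging under 1 CPM in SCC6 PBS. The 8 endothelial markers summed to at most 6.34 CPM. The 9 immune markers summed to 20.5 to 24.8 CPM in SCC6 PBS and 10.9 to 14 CPM in SCC6 CTX. In SCC25 they summed to 174 to 243 CPM in PBS and 152 to 185 CPM in CTX, where CD68 had 46612 and 36628 counts. The T cell marker CD2 was at 0 in every group. Of the 4 immune markers tested, CD68 and CSF1R had a called difference. Among 37 genes present in SCC25 and absent from SCC6 PBS, the SCC6 CTX libraries held a median of 0.039% to 0.101% of the SCC25 level, and only COL3A1 exceeded 10%. In bulk RNA, fewer cells of a type and less RNA per cell cannot be told apart.

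Cetuximab changed more genes in SCC6 than in SCC25, by a margin that depended on the fit. The line-by-treatment difference passed the test (adjusted p under 0.05) for 2992 genes, 14.6% of those tested, of which 1687 (8.21%) lay above 0 and 1305 (6.35%) below 0, and 5949 had an unadjusted p under 0.05. Within SCC6, cetuximab changed 7445 genes (36.2%), 4010 upward (19.5%) and 3435 downward (16.7%). Within SCC25 it changed 1299 genes (6.32%), 735 upward (3.58%) and 564 downward (2.74%). These shares of all genes tested are the background for the counts of gene groups below. The median absolute log2 fold change was 0.33 in SCC6 and 0.19 in SCC25. With a variance for each line, 6231 genes passed in SCC6 and 3655 in SCC25. Without the 3 libraries that stood apart the counts were 5764 and 3081. With flow cell as a covariate they were 6360 and 810. SCC6 had the larger count in each of these fits.

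Most differences were of 1 kind. Of the 2992 genes, 2476 (12% of all genes tested) changed in SCC6 and did not pass the test in SCC25, with 1445 higher and 1031 lower under cetuximab. For 1343 of them the 95% interval of the SCC25 change lay wholly within ±0.5 on the log2 scale, so that a larger SCC25 change was outside the interval, and for the remaining 1133 it was wider. Only 142 genes (0.691%) changed in SCC25 and did not pass in SCC6, 89 higher and 53 lower, and 60 (0.292%) changed in both lines in opposite directions. A further 164 genes changed in the same direction and more in SCC6, 1 gene (CLDN1) more in SCC25, and 149 passed for the difference without passing in either line. These counts rest on a spread shared by both lines. When each line was given a variance of its own, 3655 genes passed in SCC25, among them 312 of the 2476 (12.6%, against 17.8% of all genes), 194 with the sign of SCC6 and 118 with the opposite sign, and 81 of the 1343 (6.03%). The 2476 were selected in the same libraries for not passing in SCC25. Their lower share follows in part from that selection, and it does not test how far these calls depend on the variance.

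**Figure D1:**
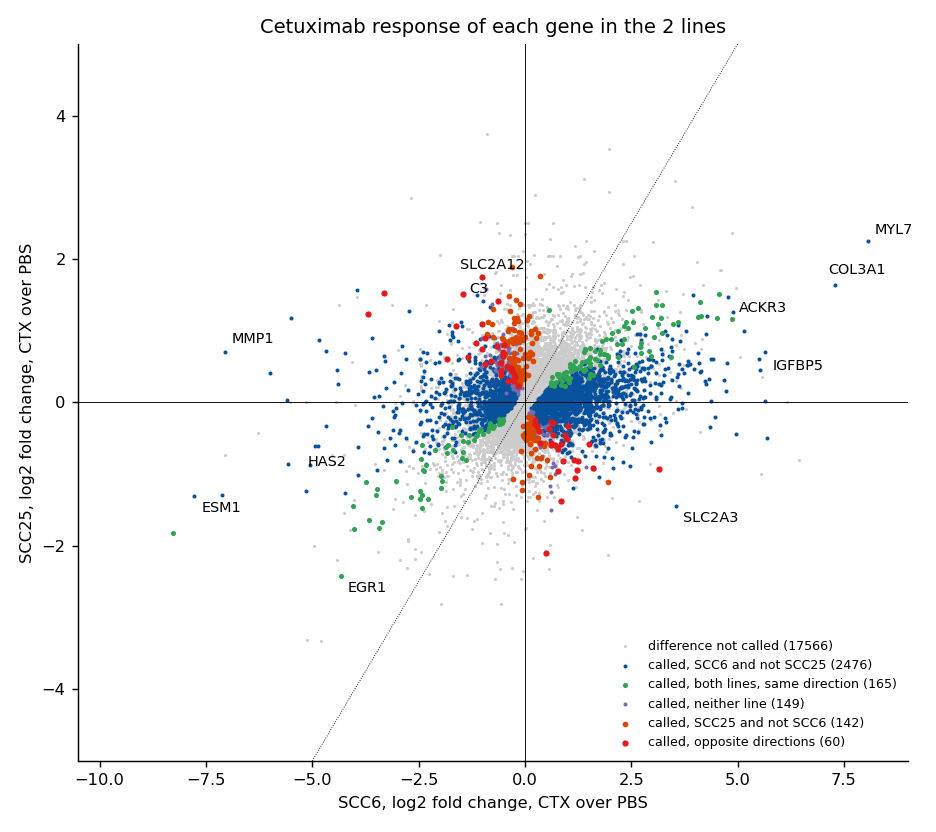
Log2 fold change of cetuximab over PBS in SCC6 (x axis) and in SCC25 (y axis), 1 point per gene tested, coloured by which line passed the test. The 2476 genes that changed in SCC6 and did not pass the test in SCC25 spread along the x axis. For 1343 of them the 95% interval of the SCC25 change lay within the bound given above, and for 1133 it was wider. Not passing in SCC25 therefore does not place a gene near the x axis. The 142 genes that passed in SCC25 and not in SCC6 spread along the y axis, and 6 genes fall outside the axes.

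ERK pathway output fell in both lines and fell further in SCC6. Of the 22 genes in this group, 18 fell in SCC6 and 12 in SCC25, and the difference lay below 0 for 10, with the same count under both alternatives. The median log2 fold change was -1.20 in SCC6 and -0.64 in SCC25, beside 0.04 and 0.03 over all genes tested. EGR1, an immediate early zinc-finger transcription factor (chr5:137801168-137804992, plus strand, GRCh37), measured 223, 224, 198, 214 and 224 CPM in SCC6 PBS on days 1 to 5 and 15.2, 10.9, 13.9, 7.5 and 6.38 CPM in SCC6 CTX on days 2a, 2b, 3, 4 and 5. In SCC25 it measured 44.3, 65, 66.1, 91.1 and 75.4 CPM in PBS and 9.59, 14.6, 10.8, 15.2 and 13.6 CPM in CTX on days 1 to 5. Treated and vehicle libraries did not overlap in either line, and EGR1 reached overlapping treated levels in both lines from a higher vehicle level in SCC6. The EGR1 log2 fold change ± SE was -4.34 ± 0.23 (adjusted p = 6.91e-11) in SCC6 and -2.42 ± 0.21 (adjusted p = 1.72e-06) in SCC25, with a difference of -1.91 ± 0.29 (adjusted p = 0.000167). DUSP6, the phosphatase that removes phosphate from ERK, measured 49.4, 49.2, 43.3, 41.8 and 34.4 CPM in SCC6 PBS and 11.5, 11.1, 12.4, 9.74 and 11.1 CPM in SCC6 CTX. Its SCC25 levels were 83.2, 92.6, 93.1, 89.5 and 77 CPM in PBS and 39.8, 40.2, 38.9, 37.4 and 33.1 CPM in CTX. DUSP6 was thus lower in every treated library of both lines, with changes of -1.97 and -1.20 on the log2 scale, and the difference was -0.77 ± 0.13 (adjusted p = 0.000628). SPRY4, a feedback inhibitor of receptor tyrosine kinases, ranged over 25.6 to 33.3 CPM in SCC6 PBS and 5.25 to 7.68 CPM in SCC6 CTX, and over 40.3 to 45 CPM in SCC25 PBS and 25.5 to 30.6 CPM in SCC25 CTX. The difference for SPRY4 was -1.45 ± 0.14 (adjusted p = 1.5e-06), for PHLDA1 -1.83 ± 0.23 (adjusted p = 2.21e-05), for FOS -1.46 ± 0.30 (adjusted p = 0.00263), for DUSP5 -1.37 ± 0.25 (adjusted p = 0.000805) and for IER2 -0.97 ± 0.27 (adjusted p = 0.0185). MYC, a transcription factor of growth and proliferation, fell in both lines, -1.13 ± 0.14 (adjusted p = 1.92e-06) in SCC6 and -1.03 ± 0.14 (adjusted p = 0.000205) in SCC25, and the interval of its difference included 0, -0.11 (95% interval -0.50 to 0.29, adjusted p = 0.757).

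EGR1 fell while several genes of the contractile apparatus rose, in both lines and further in SCC6. Both kinds of gene are known targets of serum response factor, which binds a sequence called the CArG box. The 250 bases before the transcription start are printed 5′ to 3′ from RefSeq (GRCh38.p14) for EGR1 and for the contractile genes ACTG2 and MYL7, with each CArG box in capitals.
EGR1 (chr5:138465229-138465478, plus strand): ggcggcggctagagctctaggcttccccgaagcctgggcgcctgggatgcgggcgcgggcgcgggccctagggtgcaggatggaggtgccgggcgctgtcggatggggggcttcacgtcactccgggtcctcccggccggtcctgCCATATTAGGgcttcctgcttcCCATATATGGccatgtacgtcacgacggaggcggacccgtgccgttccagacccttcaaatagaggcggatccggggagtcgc
ACTG2 (chr2:73892758-73893007, plus strand): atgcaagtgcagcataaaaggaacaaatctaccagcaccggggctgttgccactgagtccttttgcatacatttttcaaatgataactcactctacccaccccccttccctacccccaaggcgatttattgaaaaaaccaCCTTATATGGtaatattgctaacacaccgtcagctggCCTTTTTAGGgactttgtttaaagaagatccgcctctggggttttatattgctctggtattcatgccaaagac
MYL7 (chr7:44141333-44141582, minus strand): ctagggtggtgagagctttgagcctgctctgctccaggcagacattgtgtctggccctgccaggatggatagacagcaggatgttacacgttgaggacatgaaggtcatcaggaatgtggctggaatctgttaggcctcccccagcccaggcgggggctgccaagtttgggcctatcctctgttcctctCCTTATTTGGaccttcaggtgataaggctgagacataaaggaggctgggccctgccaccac
The boxes lie 105 to 96 and 83 to 74 bases before the start in EGR1, 110 to 101 and 73 to 64 in ACTG2, and 61 to 52 in MYL7. A CArG box was found in 1.16% of 35116 such windows over all genes, in 29.2% of the 24 windows of the contractile genes (7 of 14 genes with a window) and in 1 of 13 ERK output genes with a window, EGR1. Of the contractile genes with a box, ACTG2, CNN2, MYL7 and MYLK had a difference above 0 and SMTN had none called. ACTA1 and ACTC1 were too low to test. The motif was sought under its name on both strands, where it reads alike, and a match is a description of the letters only.

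EGFR itself did not pass the test in either line or for the difference. Its level was 863, 843, 926, 820.5 and 966 CPM in SCC6 PBS and 979, 929, 1061, 921 and 885 CPM in SCC6 CTX, and 993 to 1042 CPM in SCC25 PBS and 1056 to 1134 CPM in SCC25 CTX. The SCC6 minus SCC25 difference for EGFR was 0.01 (95% interval -0.17 to 0.18, adjusted p = 0.971), and its sign turned below 0 in 12 of the alternative settings without passing the test. Several of its ligands fell. Of 14 EGF receptors and ligands, 8 fell and 2 rose in SCC6, 4 fell and 1 rose in SCC25, and the difference lay below 0 for 5 and above 0 for 1. With flow cell as a covariate these were 3 and 0. AREG, the ligand amphiregulin, measured 379, 494, 462, 390.5 and 350 CPM in SCC6 PBS and 73.5, 83.6, 58.6, 22.6 and 14.6 CPM in SCC6 CTX. In SCC25, AREG measured 61.9, 77.5, 87.9, 77 and 83.2 CPM in PBS and 34.8, 38.1, 39.4, 34.5 and 34.1 CPM in CTX. The treated groups lay below the vehicle groups in both lines, and within SCC6 CTX the libraries of days 4 and 5 were the lowest. AREG fell by 3.04 ± 0.33 (adjusted p = 5.2e-07) in SCC6 and by 1.10 ± 0.31 (adjusted p = 0.0378) in SCC25, with a difference of -1.94 ± 0.43 (adjusted p = 0.00477). The differences for HBEGF (-0.95 ± 0.22 (adjusted p = 0.00534)) and TGFA (-1.06 ± 0.33 (adjusted p = 0.0356)) were also below 0, and neither passed with flow cell as a covariate. BTC, the ligand betacellulin, fell in SCC6 (-1.17) and was at 0.63 (95% interval 0.18 to 1.08) in SCC25, giving a difference of -1.80 ± 0.29 (adjusted p = 0.000328). ERBB3, the partner receptor that signals through PI3 kinase, fell in SCC6 (-0.42) and rose in SCC25 (0.51), with a difference of -0.93 ± 0.17 (adjusted p = 0.000764). EGF was the ligand with a difference above 0, 1.62 ± 0.49 (adjusted p = 0.0295), from levels of 0.0306 to 0.55 CPM in SCC6 PBS and 0.443 to 1.01 CPM in SCC6 CTX. It did not pass with flow cell as a covariate or without the 3 libraries that stood apart, and without those 3 libraries 2 members lay above 0.

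Receptor tyrosine kinases other than the EGFR family rose in SCC6. Of 22 such receptors 12 rose and 3 fell in SCC6, 1 rose and 2 fell in SCC25 (3 and 6 with a variance for each line), and the difference lay above 0 for 7 and below 0 for 1. IGF1R, the receptor of insulin-like growth factor 1 (chr15:99191768-99507759, plus strand, GRCh37), measured 148, 129.9, 116, 111 and 118 CPM in SCC6 PBS and 259, 249, 248, 226 and 218 CPM in SCC6 CTX. The SCC25 values were 166, 165, 158, 158 and 149.9 CPM in PBS and 158, 151, 141, 151 and 147 CPM in CTX. Every treated SCC6 library exceeded every vehicle library, whereas the SCC25 groups overlapped. IGF1R rose by 0.95 ± 0.07 (adjusted p = 8.49e-09) in SCC6 and was at -0.09 (95% interval -0.24 to 0.06) in SCC25, with a difference of 1.04 ± 0.10 (adjusted p = 1.87e-06) that passed under every alternative. FGFR2, a fibroblast growth factor receptor, rose from 4.03–5.15 to 16.4–26.7 CPM in SCC6 and ranged over 35.1 to 39.2 and 42.6 to 49.8 CPM in SCC25, with a difference of 1.90 ± 0.16 (adjusted p = 3.13e-07). AXL, a receptor tyrosine kinase associated with mesenchymal cell states, rose in SCC6 (0.61) and fell in SCC25 (-0.60), a difference of 1.21 ± 0.19 (adjusted p = 0.000259). EPHB2, an ephrin receptor, rose in SCC6 (1.12) with a difference of 1.37 ± 0.22 (adjusted p = 0.000347). PDGFRB went from 12 counts over all SCC6 PBS libraries to 1276 over SCC6 CTX, with 1.43, 0.531, 2.12, 6.73 and 8.05 CPM in the treated libraries, and its fitted difference of 5.61 ± 0.90 (adjusted p = 0.000255) depends on the prior count. KIT was the receptor with a difference below 0, -4.92 ± 1.05 (adjusted p = 0.00336). It had 13 counts in SCC6 PBS and 1 in SCC6 CTX, and rose in SCC25 from 0.654–1.75 to 1.71–3.62 CPM, so that its SCC6 fold change likewise depends on the prior count.

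The IGF axis followed IGF1R in SCC6. Of 12 members tested 9 rose and 1 fell in SCC6, 0 passed in SCC25 (2 rose and 1 fell with a variance for each line), and 4 had a difference above 0 (2 with flow cell as a covariate). In SCC25 the unadjusted p was under 0.05 for 5 of the 12. IGFBP5, a secreted IGF-binding protein, measured 2.14, 2.33, 2.18, 3.48 and 3.85 CPM in SCC6 PBS and 27.7, 5.02, 102, 181 and 389.8 CPM in SCC6 CTX. In SCC25 it ranged over 0.856 to 1.66 CPM in PBS and 1.34 to 2.96 CPM in CTX. Its treated SCC6 libraries spread widely, from the lowest in 2b to the highest on day 5, and all lay above the vehicle libraries. The difference of 4.95 ± 1.01 (adjusted p = 0.00234) did not pass with flow cell as a covariate. IGFBP7 rose in SCC6 (3.01) with a difference of 2.42 ± 0.39 (adjusted p = 0.000321), and IRS2, an adaptor of the insulin and IGF1 receptors, with a difference of 0.99 ± 0.20 (adjusted p = 0.00196). The difference of IRS2 did not pass once flow cell was a covariate.

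Contractile genes, which encode actins, myosin light chains and their regulators of smooth muscle and stress fibres, rose in both lines and further in SCC6. Of 15 members tested, 13 rose in SCC6 and 6 in SCC25, and the difference lay above 0 for 11, also with flow cell as a covariate and without SCC6 PBS day 1 and SCC6 CTX days 4 and 5. The median log2 fold change was 2.16 in SCC6 and 0.72 in SCC25. TPM1, the actin-binding tropomyosin 1 (chr15:63334819-63364114, plus strand, GRCh37), measured 92.7, 122, 118, 129 and 121 CPM in SCC6 PBS and 769.6, 525, 1068, 937 and 1099 CPM in SCC6 CTX. SCC25 held 146, 148, 138, 142 and 146 CPM of TPM1 in PBS and 221, 215, 243, 246 and 264 CPM in CTX. SCC6 PBS started slightly below SCC25 PBS, and the treated libraries lay above every vehicle library in both lines, with the larger step in SCC6. TPM1 rose by 2.92 ± 0.15 (adjusted p = 4.89e-11) in SCC6 and 0.72 ± 0.14 (adjusted p = 0.00424) in SCC25, and the difference was 2.20 ± 0.20 (adjusted p = 6.84e-07). TAGLN, the actin cross-linking protein transgelin, measured 16.5, 13.9, 16.6, 14.4 and 13.3 CPM in SCC6 PBS and 183, 87.1, 287, 333 and 422 CPM in SCC6 CTX. The TAGLN levels of SCC25 were 45.2, 48, 47.4, 52.2 and 58.8 CPM in PBS and 76.1, 103, 98.7, 142 and 160.2 CPM in CTX. TAGLN was lower in SCC6 PBS than in any SCC25 library, and on treated days 3 to 5 higher than in any SCC25 library, and the difference was 2.93 ± 0.40 (adjusted p = 5.06e-05). MYL9, a myosin regulatory light chain, gave a difference of 2.70 ± 0.41 (adjusted p = 0.000164), and ACTG2, the enteric smooth muscle actin, 3.30 ± 0.72 (adjusted p = 0.0039). CNN1, calponin, rose in SCC6 (3.41) and was at 0.05 (95% interval -0.88 to 0.98) in SCC25, with a difference of 3.37 ± 0.65 (adjusted p = 0.00149). MYL7, the atrial myosin regulatory light chain, had 13 counts over SCC6 PBS and 7374 over SCC6 CTX, where it measured 6.09, 1.8, 17.5, 28.1 and 57.1 CPM. Its SCC25 levels were 0.0561 to 0.438 CPM in PBS and 0.611 to 1.84 CPM in CTX, and its fitted difference of 5.81 ± 1.31 (adjusted p = 0.00495) depends on the prior count and did not pass with a variance for each line.

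Targets of YAP, the co-activator of the Hippo pathway, and genes of TGF-beta and BMP signalling changed mainly in SCC6. Of 18 YAP targets, 10 rose and 3 fell in SCC6, 1 rose and 1 fell in SCC25 (2 and 4 with a variance for each line), and the difference lay above 0 for 10 and below 0 for 1, NT5E (2 without the 3 libraries that stood apart). Of 21 TGF-beta and BMP genes, 11 rose and 3 fell in SCC6, 1 rose and 1 fell in SCC25 (3 and 2 with a variance for each line), and the difference lay above 0 for 11. TGFB2, a TGF-beta ligand that both groups hold, measured 1.84, 2.94, 3.74, 6.38 and 10.2 CPM in SCC6 PBS and 94.5, 47.8, 152, 121 and 160 CPM in SCC6 CTX. For SCC25 the TGFB2 levels were 39, 39.6, 45.8, 47.6 and 39.8 CPM in PBS and 79.7, 82.5, 104, 108 and 105 CPM in CTX. Both lines rose, SCC6 from a far lower vehicle level, and the difference was 3.35 ± 0.46 (adjusted p = 6.18e-05). BAMBI, a decoy receptor that dampens TGF-beta signalling, rose in SCC6 (2.31) with a difference of 2.64 ± 0.34 (adjusted p = 3.15e-05), as did the inhibitory SMAD6 (2.12 ± 0.50 (adjusted p = 0.00698)) and the BMP target ID3 (1.71 ± 0.39 (adjusted p = 0.0058)). INHBA, the activin A subunit, rose in SCC6 (0.78) and fell in SCC25 (-0.65), a difference of 1.43 ± 0.20 (adjusted p = 7.54e-05). Among YAP targets, ANKRD1 rose in SCC6 (1.84) and was at -0.03 (95% interval -0.74 to 0.68) in SCC25, with a difference of 1.87 ± 0.48 (adjusted p = 0.0129), and CTGF, the matricellular protein CCN2, had a difference of 1.03 ± 0.33 (adjusted p = 0.0433) that was lost with RLE size factors. NT5E, the ectonucleotidase CD73, fell in SCC6 (-2.05) with a difference of -1.46 ± 0.29 (adjusted p = 0.00177). Flow cell as a covariate ended the call for SMAD6 and CTGF.

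Collagens and mesenchymal genes rose in SCC6 from levels that in the vehicle libraries were mostly far below those of SCC25. Of 21 collagens 12 rose and 2 fell in SCC6, 4 rose in SCC25 (6 rose and 2 fell with a variance for each line), and the difference lay above 0 for 10 and below 0 for 2 (10 and 1 without the 3 libraries that stood apart). COL5A1, a fibrillar collagen chain, measured 52.5, 17.4, 15.1, 18.3 and 20.8 CPM in SCC6 PBS and 198, 110.5, 293, 763 and 807 CPM in SCC6 CTX. In SCC25 COL5A1 measured 739, 715, 627, 685 and 806 CPM in PBS and 1067, 1144, 675, 973 and 992 CPM in CTX. All treated SCC6 libraries exceeded the vehicle ones, and those of days 4 and 5 reached the level of SCC25. COL5A1 rose by 4.13 ± 0.47 (adjusted p = 9.75e-07) in SCC6 and was at 0.44 (95% interval -0.41 to 1.29) in SCC25, with a difference of 3.69 ± 0.60 (adjusted p = 0.000307). COL4A1, a basement membrane collagen chain, rose from 36.7–71.9 to 144–931 CPM in SCC6 and ranged over 409.8 to 495 and 337 to 403 CPM in SCC25, with a difference of 3.51 ± 0.48 (adjusted p = 5.29e-05), and its partner COL4A2 had a difference of 3.10 ± 0.56 (adjusted p = 0.00084). FBN1, the microfibril protein fibrillin 1, measured 5.76, 4.17, 4.35, 4.48 and 4.06 CPM in SCC6 PBS and 49.6, 26.6, 84.5, 103 and 128 CPM in SCC6 CTX, against 59.3 to 79.1 and 98.1 to 110.1 CPM in SCC25. The FBN1 difference was 3.56 ± 0.38 (adjusted p = 3.83e-06). COL3A1 had 5 counts over SCC6 PBS and 1832 over SCC6 CTX, where it measured 0.586, 0.148, 1.62, 6.35 and 17.1 CPM, against 12.2 to 20.2 and 29.9 to 68 CPM in SCC25. Its fitted difference of 5.66 ± 1.58 (adjusted p = 0.02) depends on the prior count and did not pass with flow cell as a covariate, with a variance for each line, or without SCC6 PBS day 1 and SCC6 CTX days 4 and 5. COL1A1, with a difference of 3.33 ± 0.65 (adjusted p = 0.00171), PDGFRB and COL3A1 are also 3 of the 10 fibroblast markers, and the part of such cells in the result was not tested, while 7 of the 10 averaged under 1 CPM in SCC6 CTX. COL8A1 moved the other way, falling in SCC6 (-1.35) and rising in SCC25 (0.63), a difference of -1.98 ± 0.26 (adjusted p = 3.67e-05).

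Of 17 genes of the epithelial-mesenchymal transition (EMT) that were tested, 10 rose and 3 fell in SCC6, 3 fell in SCC25 (5 fell and 2 rose with a variance for each line), and the difference lay above 0 for 10 and below 0 for 1 (8 and 0 with flow cell as a covariate). VIM, the mesenchymal intermediate filament vimentin (chr10:17270240-17279592, plus strand, GRCh37), measured 164, 107, 75.8, 45.1 and 34.2 CPM in SCC6 PBS and 230, 145, 385, 443 and 526 CPM in SCC6 CTX. SCC25 levels of VIM were 1119, 1163, 922, 783 and 695 CPM in PBS and 839, 830, 568, 617 and 568 CPM in CTX. The vehicle level was lower on each later day in SCC6, the SCC6 groups overlapped through PBS day 1 and CTX 2b, and the SCC25 groups overlapped as well. VIM rose by 2.02 ± 0.36 (adjusted p = 0.000183) in SCC6 and was at -0.45 (95% interval -1.18 to 0.27) in SCC25, with a difference of 2.47 ± 0.50 (adjusted p = 0.00215). CDH2, N-cadherin, measured 36.4, 39.2, 37.1, 35.8 and 39.9 CPM in SCC6 PBS and 198, 133, 262, 213 and 235 CPM in SCC6 CTX, against 182 to 222 and 220.4 to 283 CPM in SCC25. All treated SCC6 libraries exceeded the vehicle ones and, apart from 2b, lay within the SCC25 range, and the difference was 2.14 ± 0.18 (adjusted p = 3.13e-07). FN1, the matrix glycoprotein fibronectin, rose in SCC6 (1.56) with a difference of 2.10 ± 0.31 (adjusted p = 0.000102), and LOX, the collagen cross-linking lysyl oxidase, with a difference of 1.38 ± 0.32 (adjusted p = 0.00563). For TNC, tenascin C, the difference of 1.87 ± 0.53 (adjusted p = 0.0224) did not pass with flow cell as a covariate. SPARC had 8 counts in SCC6 PBS and 447 in SCC6 CTX, and its fitted difference was 4.21 ± 0.88 (adjusted p = 0.00277).

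**Figure D2:**
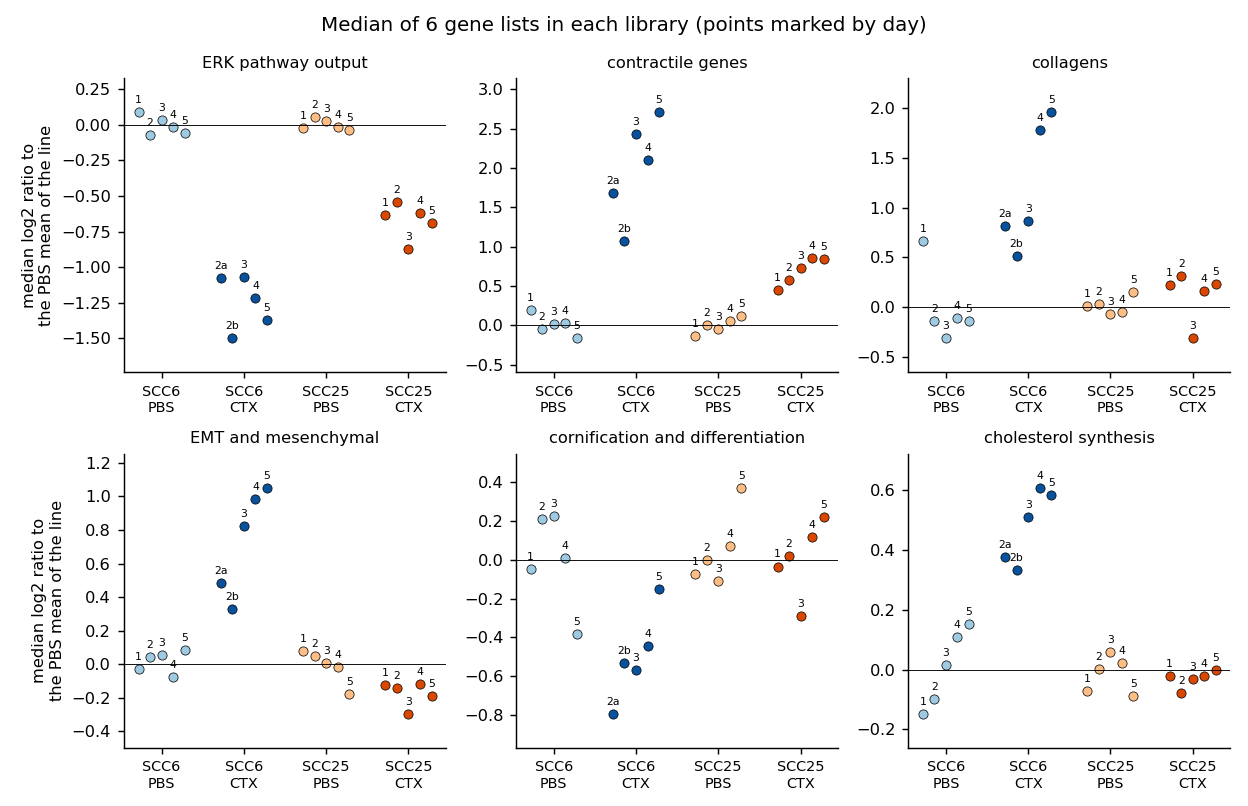
Median log2 ratio to the vehicle mean of the same line (y axis) for 6 gene groups, 1 point per library, marked by day, with PBS and CTX of SCC6 and SCC25 along the x axis. ERK pathway output lay at -1.07 to -1.50 in SCC6 CTX and -0.55 to -0.87 in SCC25 CTX, contractile genes at 1.07 to 2.71 and 0.45 to 0.86, and collagens in SCC6 CTX were highest on days 4 and 5 while SCC6 PBS day 1 stood at 0.66.

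MMP1 and ESM1, which encode secreted proteins, had the largest differences below 0 among genes at a mean log2 CPM of at least 3. MMP1, interstitial collagenase (chr11:102660132-102668891, minus strand, GRCh37), measured 2153, 1687, 1293, 578 and 280.3 CPM in SCC6 PBS and 6.35, 33.7, 2.75, 1.71 and 1.81 CPM in SCC6 CTX. The SCC25 levels of MMP1 were 59.9, 50.8, 65.9, 78.7 and 103 CPM in PBS and 52.2, 71.6, 120.2, 171 and 167 CPM in CTX. SCC6 vehicle levels were lower on each later day, every treated SCC6 library lay below all of them with 2b the highest, and the SCC25 groups overlapped. MMP1 fell in SCC6 with a log2 fold change of -7.06 ± 0.84 (adjusted p = 1.99e-06) and was at 0.70 (95% interval -0.65 to 2.05) in SCC25, a difference of -7.76 ± 1.03 (adjusted p = 4.07e-05). ESM1, the secreted proteoglycan endocan (chr5:54273695-54318499, minus strand, GRCh37), measured 85.8, 96.1, 103, 49.9 and 25.5 CPM in SCC6 PBS and 0.398, 0.384, 0.566, 0.23 and 0.166 CPM in SCC6 CTX. In SCC25 it was already low, at 0.338 to 0.668 CPM in PBS, and lower still in every CTX library, at 0.123 to 0.278 CPM. Treated SCC6 libraries came down to the range of SCC25 vehicle or below it, and the difference was -6.48 ± 0.73 (adjusted p = 7e-06). MMP10, stromelysin 2, had 66.4, 42.4, 25.5, 12.2 and 9.08 CPM in SCC6 PBS and 2.86, 3.54, 2.46, 3.08 and 6.29 CPM in SCC6 CTX, and a difference of -3.37 ± 0.72 (adjusted p = 0.00335) that did not pass with flow cell as a covariate. Of the 20 proteases and plasminogen genes 5 rose and 7 fell in SCC6, 1 rose and 4 fell in SCC25 (5 and 4 with a variance for each line), and the difference lay above 0 for 5 and below 0 for 5 (4 and 3 with flow cell as a covariate). MMP2, gelatinase A, had a difference of 2.17 ± 0.31 (adjusted p = 9.07e-05), whereas PLAUR, the urokinase receptor, had -1.94 ± 0.39 (adjusted p = 0.00206).

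Promoters of proteases and of differentiation genes are known to carry AP-1 sites, bound by FOS and JUN proteins, whose member FOS fell as given above. The 250 bases before the start of MMP10 and of SPRR1B, a cornified envelope gene, are printed 5′ to 3′ from RefSeq (GRCh38.p14), with each match to TGANTCA in capitals.
MMP10 (chr11:102780629-102780878, minus strand): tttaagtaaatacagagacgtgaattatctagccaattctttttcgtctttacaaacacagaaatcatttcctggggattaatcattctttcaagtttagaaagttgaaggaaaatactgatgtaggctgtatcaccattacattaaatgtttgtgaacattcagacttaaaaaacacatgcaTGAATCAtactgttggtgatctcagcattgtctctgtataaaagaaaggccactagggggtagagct
SPRR1B (chr1:153030953-153031202, plus strand): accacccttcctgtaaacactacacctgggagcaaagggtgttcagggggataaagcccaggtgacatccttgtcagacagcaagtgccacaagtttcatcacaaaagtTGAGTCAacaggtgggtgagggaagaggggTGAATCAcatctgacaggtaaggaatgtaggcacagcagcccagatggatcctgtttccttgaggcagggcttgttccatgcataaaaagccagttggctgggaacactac
The match lies 67 to 61 bases before the start in MMP10, and the 2 in SPRR1B lie 141 to 135 and 111 to 105 bases before it. TGANTCA, which reads alike on both strands, was found in 6.57% of 35116 windows over all genes, in 33.3% of the 12 windows of the protease group (4 of 10 genes with a window) and in 44% of the 25 windows of the cornification group (11 of 23 genes with a window). Of the cornification genes with a match, SPRR1B, SPRR2A and SBSN had a difference below 0 and FLG 1 above 0. LOR, KRTDAP and RPTN were too low to test, and the others had no called difference. In the protease group, MMP10 and PLAUR had a difference below 0, and MMP7 and SERPINB2 had none called. These letters describe the windows and do not show binding, and a link between the sites and the changes was not tested.

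More inflammatory cytokines passed as falling in SCC6 than in SCC25. Of 17 tested, 12 fell and 1 rose in SCC6, 3 fell in SCC25 (5 with a variance for each line), and the difference lay below 0 for 6 and above 0 for 1 (2 and 1 with flow cell as a covariate). The medians were -1.24 in SCC6 and -0.43 in SCC25. With flow cell as a covariate they were closer, -0.98 and -0.74, where SCC25 rests on CTX days 1 and 2 only. IL1B, interleukin 1 beta, measured 113, 156, 140.3, 118 and 109.7 CPM in SCC6 PBS and 46.1, 38.2, 28, 17.1 and 12.6 CPM in SCC6 CTX, against 36.1 to 65.5 and 30.3 to 48.6 CPM in SCC25. The IL1B difference was -1.66 ± 0.36 (adjusted p = 0.00398), that of the chemokine CCL20 -2.62 ± 0.54 (adjusted p = 0.00243), and that of PTGS2, the prostaglandin-producing cyclooxygenase 2, -1.19 ± 0.31 (adjusted p = 0.0144). TNF was the cytokine above 0, at 2.33 ± 0.59 (adjusted p = 0.0114), from 0.337 to 0.975 CPM in SCC6 PBS and 2.04 to 5.36 CPM in SCC6 CTX. Among 17 angiogenic factors the difference lay above 0 for 4 and below 0 for 4. THBS1, the angiogenesis inhibitor thrombospondin 1, rose in SCC6 (1.81) with a difference of 2.10 ± 0.31 (adjusted p = 0.000118), as did the growth factor genes PDGFB (1.44 ± 0.32 (adjusted p = 0.00433)) and PDGFA (1.19 ± 0.22 (adjusted p = 0.00102)). NRP1, a co-receptor of VEGF, fell in SCC6 (-1.16) with a difference of -1.03 ± 0.23 (adjusted p = 0.00413), and so did its ligand SEMA3A (-1.29 ± 0.20 (adjusted p = 0.000225)). Of the other large falls of SCC6, HAS2, which makes hyaluronan, measured 69, 70.0, 76.1, 39.2 and 29.6 CPM in SCC6 PBS and 2.32, 3.69, 1.92, 0.856 and 0.896 CPM in SCC6 CTX, with a difference of -4.32 ± 0.48 (adjusted p = 6.13e-06). SLPI, the secreted leukocyte protease inhibitor, had 232, 234, 225, 191 and 125 CPM in SCC6 PBS and 44.1, 82.7, 28.2, 17.5 and 11.3 CPM in SCC6 CTX, and 4.45 to 10.5 and 6.28 to 13.7 CPM in SCC25, with a difference of -3.06 ± 0.56 (adjusted p = 0.000989). PRDM1, the transcriptional repressor BLIMP1, came to a difference of -2.89 ± 0.40 (adjusted p = 6.49e-05). Both HAS2 and PRDM1 fell in SCC6, by 4.93 and 3.09 on the log2 scale, and were at -0.61 (interval -1.28 to 0.06) and -0.20 (interval -0.79 to 0.39) in SCC25. PNLIPRP3, a member of the pancreatic lipase family, had 48 counts over SCC6 PBS and 3 over SCC6 CTX, against 25 to 47.7 and 29.9 to 61.3 CPM in SCC25, and its difference of -4.87 ± 0.78 (adjusted p = 0.000278) rests on those few counts. The difference of PTGS2 did not pass once flow cell was a covariate.

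Among the largest differences above 0 outside these groups, SLC2A3, a neuronal-type glucose transporter with a near-identical paralog (SLC2A14), measured 1.87, 2.65, 5.51, 6.83 and 9.14 CPM in SCC6 PBS and 26.2, 13.2, 62.2, 82.5 and 119 CPM in SCC6 CTX, against 5 to 7.1 and 1.72 to 2.8 CPM in SCC25. SLC2A3 rose in SCC6 (3.55) and was at -1.44 (95% interval -2.40 to -0.48) in SCC25, so the difference was 4.99 ± 0.65 (adjusted p = 3.61e-05). ACKR3, a chemokine-scavenging receptor, rose in both lines, from 1.2–3.02 to 20.7–85.8 CPM in SCC6 and from 70.6–110.3 to 145–220.1 CPM in SCC25, with a difference of 3.70 ± 0.43 (adjusted p = 8.82e-06). TCF7L1, a transcription factor of the WNT pathway, rose in SCC6 (3.63) to 13.9 to 55.9 CPM, near the 21 to 28.4 CPM of SCC25 PBS, with a difference of 3.41 ± 0.38 (adjusted p = 7e-06). FAM198B had a difference of 3.82 ± 0.77 (adjusted p = 0.00217). GSTM4, one of a family of near-identical glutathione transferases that share reads, had 4 counts over SCC6 PBS and 210 over SCC6 CTX, and a fitted difference of 4.57 ± 0.63 (adjusted p = 5.98e-05).

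**Figure D3:**
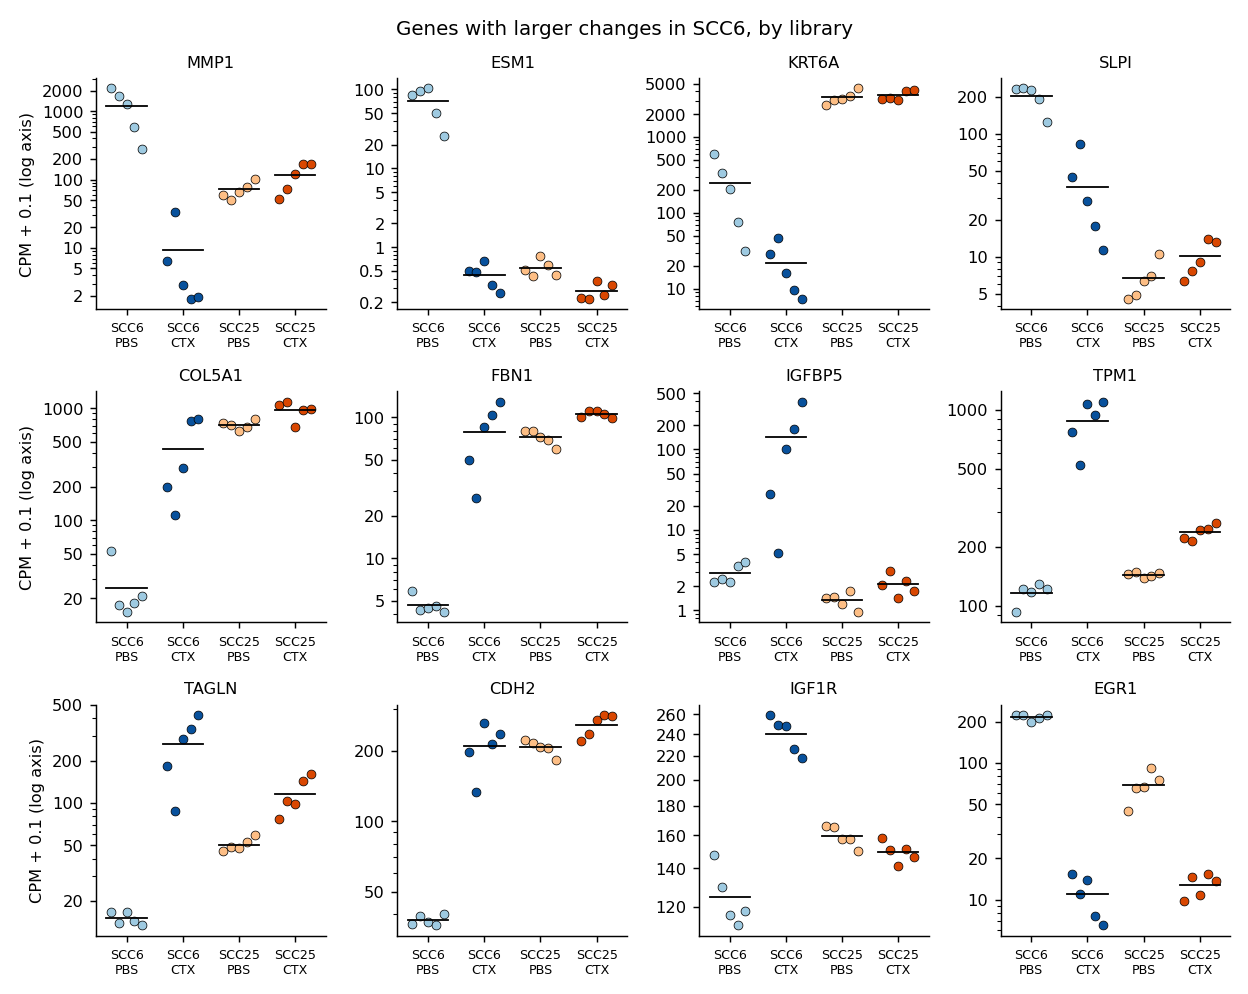
Level of 12 genes that changed in SCC6, in CPM plus 0.1 on a log axis (y axis), in the 5 libraries of SCC6 PBS, SCC6 CTX, SCC25 PBS and SCC25 CTX (x axis), with 1 point per library and a line at the mean. MMP1, ESM1 and SLPI were lower in every SCC6 CTX library than in every SCC6 PBS library, KRT6A overlapped through PBS day 5, and IGF1R, TPM1, TAGLN and CDH2 were higher in every SCC6 CTX library.

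Several keratinocyte differentiation genes fell in SCC6. Of 22 cornification genes tested, 10 fell and 1 rose in SCC6, 0 passed in SCC25 by edgeR (5 had an unadjusted p below 0.05, and 1 up and 1 down with a variance for each line), and the difference lay below 0 for 6 and above 0 for 1 (3 and 1 with flow cell as a covariate). The other 8 of the 30 listed genes were too low to test, and those tested are not a sample of the whole group. SPRR1B, whose promoter is printed above, measured 34, 40.9, 31.1, 16.4 and 5.74 CPM in SCC6 PBS and 0.539, 2.83, 0.172, 0.23 and 0.221 CPM in SCC6 CTX. In SCC25 it stood at 0.599 to 1.09 CPM in PBS and at 0.246 to 0.489 CPM in CTX, without overlap. Treated SCC6 libraries lay within or below the SCC25 range, apart from 2b at 2.83 CPM. The SPRR1B difference was -3.92 ± 0.93 (adjusted p = 0.00752). SPRR2A, of a family with near-identical members, had 825 counts in SCC6 PBS and 9 in SCC6 CTX, with a difference of -5.83 ± 0.77 (adjusted p = 3.67e-05). FLG, filaggrin, was the member above 0, at 2.17 ± 0.30 (adjusted p = 5.97e-05), with 0.172 to 0.291 CPM in SCC6 PBS and 0.443 to 0.997 CPM in SCC6 CTX. KRT6A, a keratin of activated keratinocytes that shares reads with KRT6B and KRT6C, measured 603, 334, 209, 76.5 and 30.9 CPM in SCC6 PBS and 28.8, 46.9, 15.9, 9.42 and 7.32 CPM in SCC6 CTX. SCC25 held 2650, 3045, 3193, 3424 and 4347 CPM of KRT6A in PBS and 3134, 3274, 3056, 3968 and 4138 CPM in CTX. KRT6A was lower on each later vehicle day in SCC6 and higher in SCC25, and PBS day 5 of SCC6 lay within its treated range. The differences were -3.62 ± 0.79 (adjusted p = 0.00395) for KRT6A and -4.09 ± 0.92 (adjusted p = 0.00486) for KRT6B, the latter not passing with flow cell as a covariate. Flow cell as a covariate ended the call for SPRR1B.

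Basal identity genes split. Of 18, 5 rose and 5 fell in SCC6, 1 rose in SCC25 (3 with a variance for each line), and the difference lay above 0 for 3 and below 0 for 3 (4 and 1 with flow cell as a covariate). KRT5, the basal layer keratin, measured 3.19, 2.23, 1.67, 2.28 and 1.93 CPM in SCC6 PBS and 10.3, 11.9, 9.89, 12.4 and 14 CPM in SCC6 CTX. SCC25 held it at 4514 to 6378 CPM in PBS and 5732 to 6405 CPM in CTX, far above both SCC6 groups. KRT5 rose by 2.37 ± 0.14 (adjusted p = 2.46e-10) in SCC6 and was at 0.23 (95% interval -0.02 to 0.48) in SCC25, with a difference of 2.14 ± 0.18 (adjusted p = 3.13e-07). TP63, the transcription factor that specifies squamous epithelium, rose from 30.9–51 to 70.7–118 CPM in SCC6, against 537 to 716 and 543 to 623 CPM in SCC25, with a difference of 1.38 ± 0.19 (adjusted p = 6.18e-05). KRT14, the partner of KRT5, did not pass, with a difference of 0.29 (95% interval -0.34 to 0.92, adjusted p = 0.571). KRT15 fell in SCC6 (-1.18) with a difference of -1.78 ± 0.37 (adjusted p = 0.00252), as did the integrin subunit ITGA2 (-0.91 ± 0.23 (adjusted p = 0.0111)) and the laminin chain LAMB3 (-0.87 ± 0.25 (adjusted p = 0.023)), the last 2 not passing with flow cell as a covariate. For BCAM, a laminin receptor, the difference was 1.00 ± 0.32 (adjusted p = 0.0421). The difference of BCAM did not pass once flow cell was a covariate.

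Of 22 epithelial junction genes 5 rose and 9 fell in SCC6, 2 rose in SCC25 (6 rose and 1 fell with a variance for each line), and the difference lay below 0 for 7 and above 0 for 2 (2 and 2 with flow cell as a covariate, and 6 and 4 without the 3 libraries that stood apart). CDH1, E-cadherin, fell in SCC6 from 526–846 to 416–601 CPM, and in SCC25 stood at 225 to 316 CPM in PBS and 285 to 418 CPM in CTX, with a change of 0.46 (95% interval 0.13 to 0.78). The CDH1 groups overlapped in both lines, and the difference of -0.90 ± 0.22 (adjusted p = 0.00837) did not pass with flow cell as a covariate. OCLN, the tight junction protein occludin, fell in SCC6 (-1.32) and was at 0.58 (95% interval 0.00 to 1.15) in SCC25, a difference of -1.90 ± 0.36 (adjusted p = 0.00149). The claudins CLDN4 (-1.51 ± 0.37 (adjusted p = 0.00902)) and CLDN7 (-1.34 ± 0.34 (adjusted p = 0.0115)) and the desmosomal cadherin DSG3 (-1.43 ± 0.34 (adjusted p = 0.00776)) lay below 0 too, and the desmosomal plaque gene PKP2 above 0 (0.94 ± 0.14 (adjusted p = 9.31e-05)). CLDN1, a claudin of the epidermal barrier, was the single gene that rose in both lines and more in SCC25, from 168–196 to 364–499 CPM there, with a difference of -0.73 ± 0.22 (adjusted p = 0.0318) that did not pass in several alternatives. Flow cell as a covariate ended the call for CLDN4, CLDN7 and DSG3.

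**Figure D4:**
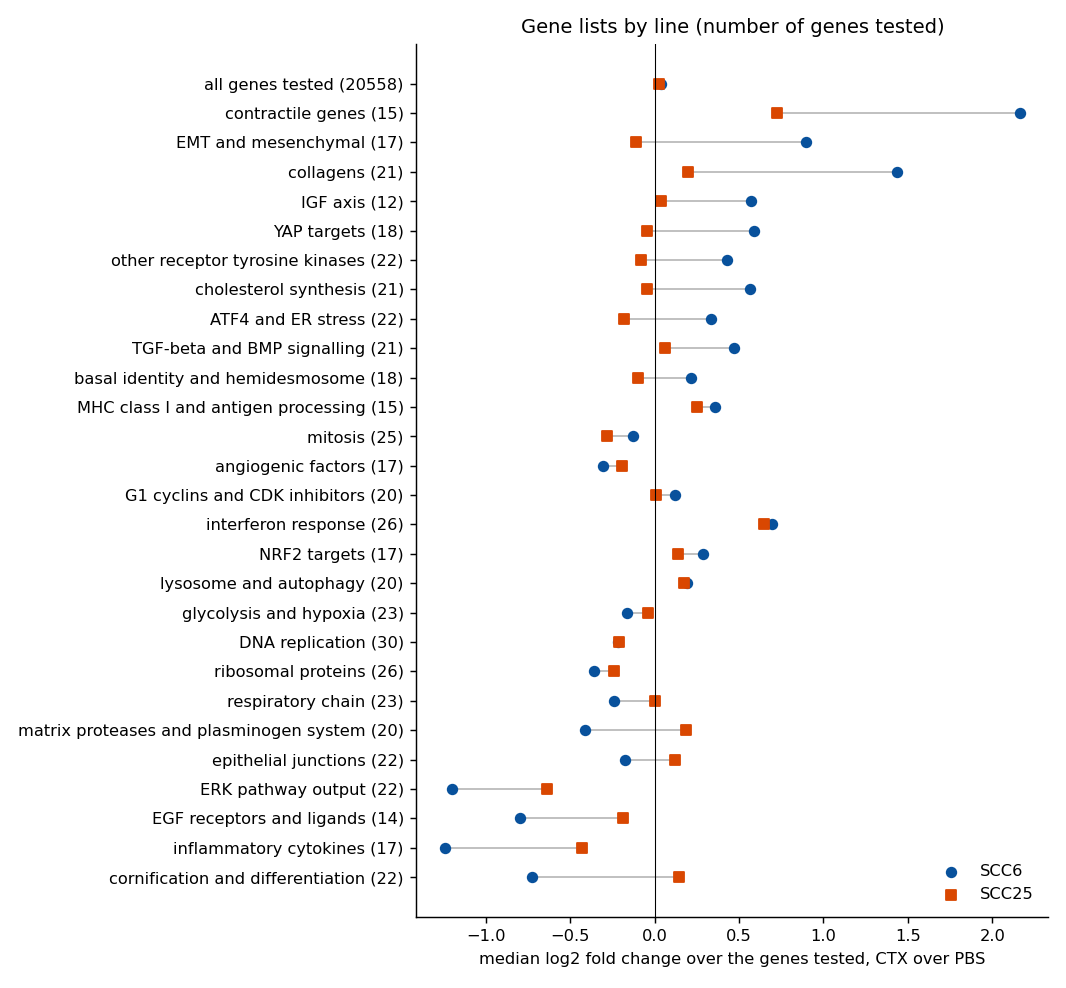
Median log2 fold change of cetuximab over PBS (x axis) in SCC6 (circles) and in SCC25 (squares) for 27 gene groups and for all genes tested (y axis), joined by a line. Contractile genes (2.16 and 0.72) and collagens (1.44 and 0.20) lie farthest to the right in SCC6, inflammatory cytokines (-1.24 and -0.43) and ERK pathway output (-1.20 and -0.64) farthest to the left, and all genes tested sit at 0.04 and 0.03.

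Over all days, few proliferation genes passed for the difference between the lines. Of 30 DNA replication genes 14 fell in SCC6 and 3 in SCC25, the latter rising to 13 with a variance for each line, and the difference passed for 2, CCNE1 (-0.99 (adjusted p = 0.00161)) and GINS3 (-0.44 (adjusted p = 0.02)), and for 1 with flow cell as a covariate or without the 3 libraries that stood apart. The medians were -0.22 in SCC6 and -0.21 in SCC25. On days 3 to 5 alone, the difference lay below 0 for 14 of the 30 and above 0 for 1. Of all 20692 genes tested on those days, 3195 lay below 0 and 3452 above 0. MCM2, a subunit of the replicative helicase, had a difference of 0.10 (95% interval -0.19 to 0.39, adjusted p = 0.691). Of 25 mitosis genes 1 fell in SCC6 and 4 in SCC25 (8 with a variance for each line), and the difference passed for 1, AURKB, the Aurora B kinase (0.50 (adjusted p = 0.0228)). Without SCC6 PBS day 1 and SCC6 CTX days 4 and 5 it passed for 8, above 0 in each. MKI67, the proliferation antigen Ki-67, measured 478, 559, 473, 436 and 449.9 CPM in SCC6 PBS and 489.5, 560.3, 382, 348 and 302 CPM in SCC6 CTX, against 284 to 382 and 234 to 305 CPM in SCC25. The treated SCC6 libraries of days 3 to 5 lay below those of day 2 and below all vehicle libraries, and the MKI67 difference over all days was 0.03 (95% interval -0.37 to 0.43, adjusted p = 0.941). Among 20 G1 regulators the difference lay above 0 for 5 and below 0 for 1 (2 and 1 with flow cell as a covariate). CDKN1C and CDKN2C, inhibitors of cyclin-dependent kinases, rose in SCC6 with differences of 1.82 ± 0.44 (adjusted p = 0.00853) and 1.00 ± 0.21 (adjusted p = 0.00293), as did the growth arrest genes GADD45A (0.80 ± 0.21 (adjusted p = 0.0122)) and BTG2 (0.57 ± 0.18 (adjusted p = 0.0382)). CCND1, cyclin D1, fell in SCC6 from 469.6–528 to 294–392 CPM and was at -0.05 (95% interval -0.20 to 0.10) in SCC25, with a difference of -0.47 ± 0.10 (adjusted p = 0.00339), and CDK4 fell in SCC25 (-0.39) with a difference of 0.52 ± 0.13 (adjusted p = 0.00992). The differences of GINS3, AURKB, CDKN1C, CDKN2C, GADD45A and CDK4 did not pass once flow cell was a covariate.

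Genes of cholesterol synthesis rose in SCC6. Of 21 genes 14 rose and 1 fell in SCC6, 2 fell in SCC25 (4 with a variance for each line), and the difference lay above 0 for 12 (9 with flow cell as a covariate). The medians were 0.56 in SCC6 and -0.04 in SCC25. SQLE, squalene epoxidase, measured 399, 433, 427, 472 and 482 CPM in SCC6 PBS and 702, 718, 764, 652 and 644 CPM in SCC6 CTX. In SCC25 SQLE went from 108 to 130 CPM in PBS to 92 to 106 CPM in CTX. The groups did not overlap in either line, the step being upward in SCC6 (0.65) and downward in SCC25 (-0.29), with a difference of 0.94 ± 0.10 (adjusted p = 5.66e-06). Lanosterol synthase (LSS) had a difference of 1.07 ± 0.23 (adjusted p = 0.00385), and DHCR7, of the last steps of synthesis, 0.85 ± 0.16 (adjusted p = 0.001). Respiratory chain genes moved by small amounts, with 13 of 23 falling in SCC6 and 1 in SCC25, and a difference below 0 for 6, from -0.52 (UQCRB) to -0.38 (NDUFA1). With flow cell as a covariate 0 of the 6 passed by edgeR. Of 26 ribosomal protein genes 23 fell in SCC6 and 9 in SCC25 (18 with a variance for each line), and the difference passed for 0 by edgeR, with 5 at an unadjusted p below 0.05, and for 11 below 0 and 1 above 0 on days 3 to 5 alone. Of all 20692 genes tested on those days, 3195 lay below 0 and 3452 above 0.

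Of 22 genes of ATF4 and endoplasmic reticulum stress, 7 rose in SCC6, 0 passed in SCC25 by edgeR (1 had an unadjusted p below 0.05, and 1 down with a variance for each line), and the difference lay above 0 for 4 (1 with flow cell as a covariate, 2 without the 3 libraries that stood apart and 11 on days 3 to 5 alone). SLC7A5 and SLC3A2, the 2 chains of an amino acid transporter, had differences of 1.09 ± 0.21 (adjusted p = 0.00174) and 0.67 ± 0.15 (adjusted p = 0.00469). Of 23 glycolysis and hypoxia genes 5 rose and 7 fell in SCC6 and 1 fell in SCC25, and the difference passed for 4, among them ADM, the vasodilator peptide adrenomedullin (0.96 (adjusted p = 0.00507)), and EGLN3, an oxygen-sensing prolyl hydroxylase (2.06 (adjusted p = 0.00262)), and for 2 with flow cell as a covariate. Of 20 lysosome and autophagy genes 9 rose and 2 fell in SCC6, 3 rose in SCC25 (8 with a variance for each line), and the difference passed for 4, and for 1 with flow cell as a covariate. CTSB, the protease cathepsin B, rose in SCC25 (0.42) and was at -0.13 (95% interval -0.38 to 0.12) in SCC6, with a difference of -0.55 ± 0.17 (adjusted p = 0.0338). Among 17 NRF2 targets, the difference passed for 3, among them TKT (0.48 (adjusted p = 0.0321)) and AKR1C1 (-0.98 (adjusted p = 0.0194)), and for 1 without the 3 libraries that stood apart. With flow cell as a covariate 0 of the 17 passed by edgeR. Flow cell as a covariate ended the call for SLC3A2, ADM, CTSB, TKT and AKR1C1. The difference passed for 18.2% of the ATF4 group, 17.4% of glycolysis and hypoxia, 20% of lysosome and autophagy and 17.6% of NRF2 targets. These shares lie near the 14.6% of all genes tested. On days 3 to 5 alone the difference lay above 0 for 3452 of 20692 genes tested.

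The test of the difference gave few or no calls among interferon genes. Of 26 interferon genes 6 rose in SCC6 (1 with a variance for each line), 0 passed in SCC25 by edgeR (9 had an unadjusted p below 0.05, and 2 rose with a variance for each line), and 0 passed for the difference (3 at an unadjusted p under 0.05). The difference passed for 1 above 0 with flow cell as a covariate, for 3 above 0 with day as a replicate block and for 2 below 0 on days 3 to 5 alone. The medians were 0.70 in SCC6 and 0.65 in SCC25, higher than the 0.04 and 0.03 of all genes. With flow cell as a covariate they were 0.39 in SCC6 and -0.31 in SCC25. The latter sets CTX days 1 and 2 against PBS days 1 to 5, so it gives no direction apart from day. Relative to the SCC25 vehicle mean, the median of these genes on days 1 to 5 was -0.53, -0.48, -0.16, 0.30 and 1.01 in SCC25 PBS. In SCC25 CTX it was -0.24, -0.07, 0.43, 1.15 and 1.48, above the PBS value of the same day each time. IFIT1, an interferon-induced RNA-binding protein, measured 4.01, 5.17, 4.9, 9.53 and 7.39 CPM in SCC6 PBS and 12.5, 9.89, 12.5, 11.7 and 10.1 CPM in SCC6 CTX. In SCC25, IFIT1 measured 12.4, 16.8, 21.4, 37 and 70.0 CPM in PBS and 18.2, 24.4, 59.9, 104 and 141 CPM in CTX. Days 4 and 5 were the highest in both SCC25 groups, which overlapped, and the IFIT1 difference was -0.27 (95% interval -1.69 to 1.15, adjusted p = 0.833). Of 15 genes of MHC class I and antigen processing 7 rose and 2 fell in SCC6, 0 passed in SCC25 by edgeR (7 had an unadjusted p below 0.05, and 6 up and 1 down with a variance for each line), and the difference passed for 4. B2M, the invariant chain of MHC class I, had a difference of -0.72 ± 0.20 (adjusted p = 0.0183), and the peptide transporter genes TAP1 and TAP2 0.66 ± 0.21 (adjusted p = 0.0435) and -0.54 ± 0.09 (adjusted p = 0.000583). The difference of TAP1 did not pass once flow cell was a covariate.

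A small set of genes changed in SCC25 and did not pass the test, or changed in the other direction, in SCC6. The largest SCC25 changes with a difference between the lines were those of SLC2A12, MUC16, C3, CLDN1, DNAH17 and HIST1H4H, all upward. SLC2A12, a glucose transporter (chr6:134308719-134373762, minus strand, GRCh37), measured 1.53, 1.69, 2.53, 2.54 and 3.09 CPM in SCC25 PBS and 5.9, 6.2, 6.71, 9.75 and 10.1 CPM in SCC25 CTX. In SCC6 it measured 29.9, 41.8, 35.4, 28 and 26 CPM in PBS and 35.9, 38.5, 36.3, 42.3 and 51.8 CPM in CTX. Every treated SCC25 library exceeded every vehicle library, while the SCC6 groups overlapped at a higher level. SLC2A12 rose by 1.77 ± 0.20 (adjusted p = 6.28e-05) in SCC25 and was at 0.35 (95% interval -0.04 to 0.73) in SCC6, with a difference of -1.42 ± 0.27 (adjusted p = 0.00152). C3, the central complement component, measured 20.6, 19.6, 21.5, 26.8 and 37.1 CPM in SCC25 PBS and 37.2, 58.1, 58.9, 90.0 and 92.1 CPM in SCC25 CTX. Its SCC6 levels were 281, 273, 272, 241 and 286 CPM in PBS and 222, 204, 176, 162 and 107 CPM in CTX. C3 rose in SCC25 (1.42) and fell in SCC6 (-0.64), and the difference was -2.06 ± 0.32 (adjusted p = 0.00017). HIST1H4H, a histone H4 gene with near-identical copies, rose from 10.8–18 to 21.1–44.1 CPM in SCC25 and was at -0.25 (95% interval -0.62 to 0.12) in SCC6, with a difference of -1.43 ± 0.25 (adjusted p = 0.000572). Transcripts of replication-dependent histones mostly lack a poly(A) tail, so this poly(A) library measures only part of them. DNAH17, an axonemal dynein heavy chain, rose in SCC25 (1.21), where the groups overlapped through PBS day 5, and its difference of -1.11 ± 0.34 (adjusted p = 0.0331) did not pass in several alternatives.

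The clearest opposite changes were those of MUC16, MUC20, SYNE3, RNF144A, TFCP2L1 and IKZF2. SYNE3, the nuclear envelope protein nesprin 3, measured 8.18, 6.92, 7.51, 7.93 and 8.25 CPM in SCC6 PBS and 13.2, 8.62, 20.9, 22.4 and 25.4 CPM in SCC6 CTX. In SCC25 it went from 29.5, 31.1, 31.1, 28.4 and 30.7 CPM in PBS to 17.1, 15, 17.4, 13.9 and 15 CPM in CTX. The groups separated fully in both lines, upward in SCC6 (1.23) and downward in SCC25 (-0.94), so that treated levels of the 2 lines overlapped, and the difference was 2.17 ± 0.27 (adjusted p = 2e-05). RNF144A, a ubiquitin ligase, behaved likewise, with 3.78 to 6.12 and 6.61 to 15 CPM in SCC6 and 34.5 to 45.5 and 22.1 to 24.2 CPM in SCC25 for PBS and CTX, and a difference of 1.96 ± 0.22 (adjusted p = 7.86e-06). TFCP2L1, an epithelial transcription factor, fell in SCC6 from 13.8–23.6 to 7.79–10.3 CPM and rose in SCC25 from 31.3–42.9 to 59.1–61.9 CPM. Its groups did not overlap in either line, and the difference was -1.76 ± 0.18 (adjusted p = 2.41e-06). The membrane mucins MUC20 (-2.68 ± 0.32 (adjusted p = 1.25e-05)) and MUC16 (-2.77 ± 0.61 (adjusted p = 0.00406)) fell in SCC6 and rose in SCC25, where neither exceeded 1.35 CPM and where MUC16 passed narrowly (adjusted p = 0.0497). IKZF2, the transcription factor Helios, fell in SCC6 (-0.66) and rose in SCC25 (0.79), with a difference of -1.45 ± 0.22 (adjusted p = 0.000162). Flow cell as a covariate ended the call for MUC16.

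**Figure D5:**
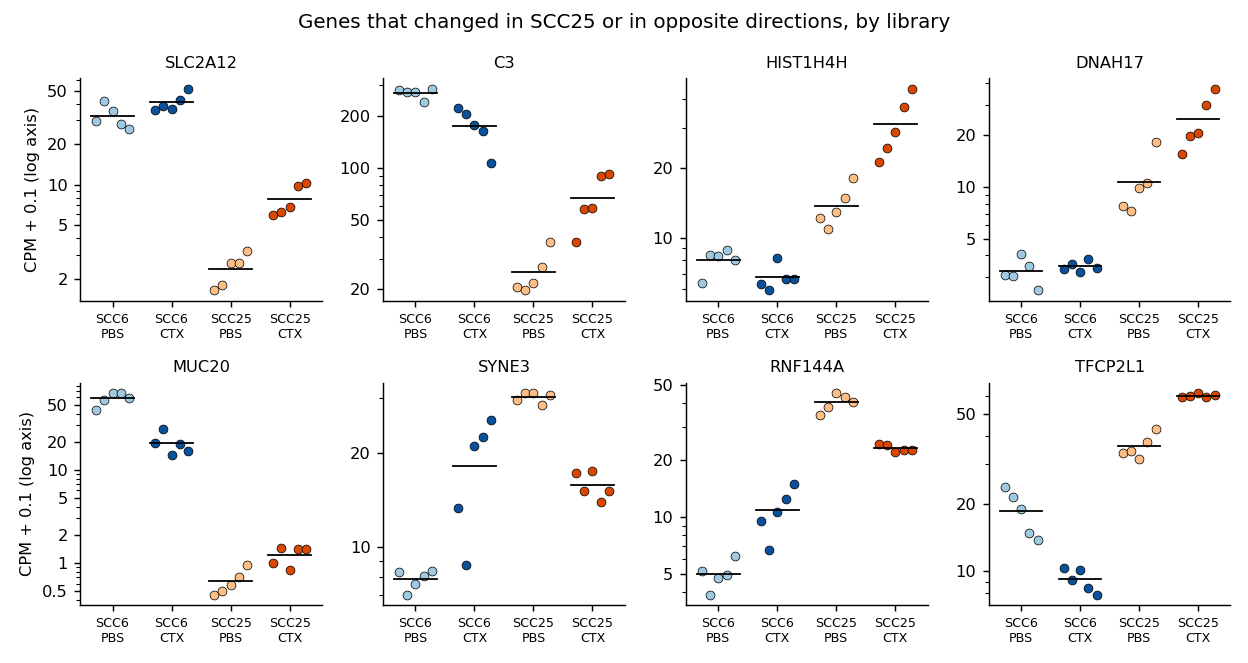
Level of 8 genes that changed in SCC25 or in opposite directions, in CPM plus 0.1 on a log axis (y axis), in the 5 libraries of each of the 4 groups (x axis), with 1 point per library and a line at the mean. SLC2A12, C3 and HIST1H4H were higher in every SCC25 CTX library than in every SCC25 PBS library, and SYNE3 and RNF144A moved apart in opposite directions in the 2 lines.

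Of 10 genes that the study followed, 3 had a called difference, VIM, AXL and IGF1R, all above 0 and given above. TFAP2A, the AP-2 alpha transcription factor (chr6:10393419-10419892, minus strand, GRCh37), measured 50.4, 53.4, 48, 45.6 and 42.5 CPM in SCC6 PBS and 56.5, 59.1, 51.5, 45 and 36.3 CPM in SCC6 CTX. SCC25 levels of TFAP2A were 55.5, 60.8, 55, 58.2 and 61.8 CPM in PBS and 57.6, 57.3, 49.8, 58.1 and 53 CPM in CTX. All 4 groups overlapped, and the difference was 0.13 (95% interval -0.18 to 0.43, adjusted p = 0.607). ERBB2, the EGFR family receptor HER2, rose in SCC6 (0.73), where PBS day 1 was as high as several treated libraries, and its difference was 0.64 (95% interval 0.09 to 1.18, adjusted p = 0.109). TGFBR3, the TGF-beta co-receptor betaglycan, fell in SCC6 (-1.06) and was at -0.55 (95% interval -0.93 to -0.18) in SCC25, with a difference of -0.50 (95% interval -1.04 to 0.03, adjusted p = 0.204). VEGFA fell in SCC25 (-0.59) and was at -0.30 (95% interval -0.65 to 0.04) in SCC6, with a difference of 0.29 (95% interval -0.20 to 0.78, adjusted p = 0.442). For FGFR1 the difference was 0.41 (95% interval -0.10 to 0.91, adjusted p = 0.282). The differences of ERBB2, TGFBR3 and VEGFA did not pass, so a change called in 1 line alone is not a tested difference between the lines for these genes.

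Vehicle levels differed between the kinds of gene. Of the 1445 genes that rose in SCC6 and did not pass in SCC25, 1066 (73.8%) had a higher mean level in SCC25 PBS than in SCC6 PBS, beside 53.3% of all genes tested. Of the 1031 that fell in SCC6, 286 (27.7%) did. COL5A1, FBN1, CDH2, KRT5 and TP63 are of the first kind, and MMP1, ESM1, SPRR1B and SLPI, each lower in SCC25 PBS than in SCC6 PBS, of the second. KRT6A, KRT6B and PNLIPRP3, which fell in SCC6 and were higher in SCC25 PBS, and SQLE and FN1, which rose in SCC6 and were lower in SCC25 PBS, lay the other way. SCC6 PBS enters both the SCC6 fold change and this comparison of levels, so the shares are a description without a test. Within SCC25, treated and vehicle libraries did not overlap for 288 of the 2476 genes (11.6%), beside 13.7% of all genes tested. The 2476 were selected for not passing in SCC25, so a lower share follows in part from that selection and is no test.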

How the data were processed

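Bulk poly(A) RNA of SCC6 and SCC25 treated with cetuximab or PBS was analysed in 20 libraries, grouped by the labels. The authors quantified transcripts with Salmon 0.8.2 (builds hg19 and GRCh37 in the submitters' processing notes), imported them to R with tximport, and deposited estimated counts per gene symbol, not normalised, of which 63.2% are whole as deposited. No annotation version is given in the sources used here, and a shared read is split between near-identical genes by the estimate.

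Counts were rounded, filtered (filterByExpr), scaled by TMM and fitted over 4 groups with the quasi-likelihood test of edgeR 4.0.16 (R 4.3.3, limma 3.58.1), 2-sided, with Benjamini-Hochberg adjustment over 20558 genes. Errors in the report are standard errors of log2 fold changes, with 5 libraries a group, and intervals are 95%. The library totals given above limit the precision of genes at a few counts. The alternatives were DESeq2 1.42.0, other size factors, no filter, a log2 change of at least 1, each library left out, a day block, flow cell, days 3 to 5, day 0 added and a fit of all 30 libraries of days 1 to 5 with the third line, SCC1, included, and, chosen after seeing the data, removal of a GC trend, a voom fit with a variance per line, and the 3 libraries that stood apart left out together. The script was tested on simulated data.

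Named genes were the 10 largest differences in each direction at a mean log2 CPM of at least 3, the 6 largest SCC25 changes, 6 opposite changes, up to 6 called members of each group described with its defining members, and the 10 genes the study followed. The members and lists were chosen with earlier results of these data known, and other genes named were chosen after their values were seen. Gene positions came from GENCODE on GRCh37 and promoter windows from RefSeq on GRCh38.p14. Some genes are not reported here. Figures were drawn with matplotlib 3.10.9.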

Additional observations from a re-analysis of the deposited data

Results flagged for a closer look

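The responses of the 2 lines to the same treatment differed, by the test of the difference itself, for 2992 genes, among them 33 of the 40 genes named by rule. On the log2 scale, the difference SCC6 minus SCC25 was above 0 for COL3A1 (5.66), SLC2A3 (4.99), IGFBP5 (4.95), GSTM4 (4.57), FAM198B (3.82), ACKR3 (3.70), COL5A1 (3.69), FBN1 (3.56), COL4A1 (3.51), TCF7L1 (3.41), SYNE3 (2.17), RNF144A (1.96), VIM (2.47), AXL (1.21) and IGF1R (1.04). It was below 0 for MMP1 (-7.76), ESM1 (-6.48), PNLIPRP3 (-4.87), HAS2 (-4.32), KRT6B (-4.09), KRT6A (-3.62), MMP10 (-3.37), SLPI (-3.06), PRDM1 (-2.89), MUC16 (-2.77), SLC2A12 (-1.42), C3 (-2.06), CLDN1 (-0.73), DNAH17 (-1.11), HIST1H4H (-1.43), MUC20 (-2.68), TFCP2L1 (-1.76) and IKZF2 (-1.45).

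In 168 groups of 5 libraries, 11 held a library whose gap to the next was a large share of the range of its group, where chance alone would mark about 1 group in 20. Of the 11, 6 lay in SCC6 PBS, and 5 of these its day 1 library, with 253.8 CPM of AXL, 52.46 CPM of COL5A1, 81.62 CPM of ERBB2, 5.757 CPM of FBN1 and 8.299 CPM of FGFR1, each the highest of its group. The SCC6 PBS day 5 library had the highest FAM198B, at 1.581 CPM, and the SCC25 PBS day 2 library the lowest FAM198B of its group, at 11.88 CPM. In SCC6 CTX, library 2b held 33.66 CPM of MMP1 and day 5 held 6.288 CPM of MMP10, each above the other treated libraries. In SCC25 CTX, day 3 was the lowest for COL4A1, at 337.3 CPM, and for its total of 37242988 counts. SCC6 PBS day 1 and SCC25 CTX day 3 each recur, and what sets them apart was not tested.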

How the results depend on the processing

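The counts below are of genes past the adjusted p threshold, and only those that moved by more than 1.5 times are given. With DESeq2 the counts were 2045 for the SCC25 change, 225 for SCC25 and not SCC6, 129 for those with a bounded SCC6 interval and 106 for opposite changes. With no filter the counts were 775 for the difference below 0, 785 for the SCC25 change, 894 for those with a bounded SCC25 interval, 69 for SCC25 and not SCC6, 29 for those with a bounded SCC6 interval and 34 for opposite changes. With a log2 change of at least 1 the counts were 1317 for the difference, 869 for the difference above 0, 448 for the difference below 0, 2278 for the SCC6 change, 260 for the SCC25 change, 1023 for SCC6 and not SCC25, 169 for those with a bounded SCC25 interval, 29 for SCC25 and not SCC6, 2 for those with a bounded SCC6 interval and 7 for opposite changes. With flow cell as a covariate the counts were 1658 for the difference, 1106 for the difference above 0, 552 for the difference below 0, 810 for the SCC25 change, 1446 for SCC6 and not SCC25, 848 for those with a bounded SCC25 interval, 44 for SCC25 and not SCC6, 26 for those with a bounded SCC6 interval and 27 for opposite changes. With days 3 to 5 only the counts were 6647 for the difference, 3452 for the difference above 0, 3195 for the difference below 0, 5399 for SCC6 and not SCC25, 2876 for those with a bounded SCC25 interval, 267 for SCC25 and not SCC6, 159 for those with a bounded SCC6 interval and 162 for opposite changes. With all 30 libraries in the fit the counts were 119 for those with a bounded SCC6 interval and 96 for opposite changes. With the GC trend removed the counts were 2897 for the SCC25 change, 2016 for those with a bounded SCC25 interval, 281 for SCC25 and not SCC6, 202 for those with a bounded SCC6 interval and 167 for opposite changes. With the GC trend removed and flow cell as a covariate the counts were 832 for the difference below 0. With a variance for each line the counts were 3655 for the SCC25 change, 265 for SCC25 and not SCC6 and 144 for opposite changes. With SCC6 PBS day 1 and SCC6 CTX days 4 and 5 left out the counts were 3081 for the SCC25 change, 262 for SCC25 and not SCC6, 153 for those with a bounded SCC6 interval and 142 for opposite changes. The causes were not tested, except that the stricter threshold by construction keeps fewer genes.

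Leaving out 1 library at a time gave 2173 to 4570 for the difference, 1273 to 2407 for the difference above 0, 900 to 2225 for the difference below 0, 6155 to 8501 for the SCC6 change, 584 to 1837 for the SCC25 change, 1751 to 3715 for SCC6 and not SCC25, 952 to 2273 for those with a bounded SCC25 interval, 58 to 229 for SCC25 and not SCC6, 36 to 131 for those with a bounded SCC6 interval and 24 to 112 for opposite changes. The lowest count for the difference came without SCC6 CTX day 5 and the highest without SCC6 PBS day 1 (for the difference above 0, without SCC6 CTX 2b), and the lowest for the SCC25 change (584) without SCC25 PBS day 2.

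Deviations of same-day PBS and CTX libraries correlated in SCC25 at 0.075 on day 1 and 0.124 to 0.146 on days 2 to 5, where 4 of 5 CTX libraries correlated best with their own day, and in SCC6 at 0.139 and 0.194 on day 2 and -0.0356 to 0.127 on days 3 to 5. Not every pair exceeded 0.1 and SCC6 has no treated day 1, so the libraries were not taken as pairs. With day as a replicate block the difference passed for 3237 genes with 2a taken as day 1 and 3018 with 2b, with 108 and 98 opposite changes, and 118 genes of SCC25 with a bounded SCC6 interval in the second. With the block and the GC trend removed, the counts were 4746 for the difference, 2702 for the difference above 0, 2044 for the difference below 0, 4065 for the SCC25 change, 2379 for those with a bounded SCC25 interval, 386 for SCC25 and not SCC6, 299 for those with a bounded SCC6 interval and 285 for opposite changes.

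For the genes named by rule, 1371 of the values under alternatives kept direction and call, 46 lost the call, 11 gained one and 12 turned sign. All that turned were the EGFR difference, which passed in no setting, at -0.0179 with DESeq2, -0.0179 with RLE size factors, -0.0211 with upper-quartile factors, -0.0824 with days 3 to 5 only and -0.0342 with day 0 added to PBS, and at -0.0357 to 0.0425 with 1 library left out. Among all genes whose difference is printed, those of TGFA, EGF, CTGF, BCAM, CLDN1, BTG2, CTSB, TKT, TAP1 and DNAH17 lay near the threshold and lost the call when any 1 of 4 to 15 libraries was left out, and that of TNC without SCC6 CTX day 5. A variance for each line ended the call for IGFBP5, MYL7, COL3A1, TNC, BCAM, DSG3, TAP1 and DNAH17. Leaving out SCC6 PBS day 1 and SCC6 CTX days 4 and 5 ended it for TGFA, EGF, CTGF, COL3A1, TNC, ITGA2, BCAM, CLDN7, GINS3, CDKN1C, TKT, AKR1C1, TAP1 and DNAH17, and days 3 to 5 alone for IER2, EGF, LAMB3, CTSB and TAP1. Low counts in SCC6 PBS (COL3A1, GSTM4, PDGFRB, SPARC, MYL7) limit the fold changes of those genes.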
